A study of Mus musculus with 5 samples.

Results

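Semaphorins are a family of guidance ligands, and plexins and neuropilins are their receptors. The expression of 31 genes of these families was examined in neural stem cells (NSCs) and STO cells: 20 semaphorin genes of classes 3 to 7, 9 plexin genes and the 2 neuropilin genes. They were chosen by symbol, with earlier results of these data known, out of 24844 symbols or identifiers in the RNA-seq files. Every gene that the rule names is accounted for. The NSCs were primary cells of embryonic mouse cortex, kept as monolayers with EGF and bFGF on poly-ornithine and laminin and used at passages 5 to 8, in 2 replicates. STO cells, a thioguanine- and ouabain-resistant line of SIM mouse embryonic fibroblasts that serves as a feeder layer, were grown in medium with fetal bovine serum for over 30 passages, in 3 replicates. The labels give the strain C57BL/6 for both, and they name no treatment or genetic change for either. STO is a single line, and nothing in the labels says that the replicates came from separate cultures or animals, so the p-values measure the spread between these samples only.

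Secreted class 3 semaphorins bind a neuropilin, which holds the ligand, and a class A plexin, which carries the signal into the cell. The semaphorins of classes 4 to 7 are held in the membrane and mostly bind plexins directly: class 4 members bind plexins of class B, class 6 members those of class A, and Sema7a, which has a lipid anchor, binds plexin C1 and integrins. The cytoplasmic part of plexins switches off small GTPases of the Ras and Rap families, and class B plexins also recruit exchange factors for RhoA. In the developing cortex these genes are known for steering axons and migrating neurons, and in mesenchyme for the patterning of vessels and nerves.

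Expression is given in FPKM, the fragments mapped to a transcript divided by its length and by the fragments mapped in the sample, which can be compared between genes because it is divided by length. The files give no read counts. The deposited confidence intervals, read as 2 standard deviations of a Poisson count on each side, imply between 15223341 and 22271895 fragments per sample, with the lowest number in STO replicate 1. These are not counts of mapped fragments, above all for genes with several transcripts. In NSC replicate 1, NM_138749 of Plxnb2 implied 1846 fragments at 42.8 FPKM, and Plxna1, with 1 listed transcript, 4949 at 17.5 FPKM. All 9 neural stem cell markers, such as Sox2, had a mean of at least 1 FPKM in NSCs and none did in STO cells, while 9 of 10 fibroblast markers, such as Col1a2, did so in STO cells and 1 (Fbln2) in NSCs. The NSC samples also held markers of later neural cells. The neuron list summed to 127.1 to 127.3 FPKM in NSCs and 12.5 to 13.0 FPKM in STO cells, the astrocyte list to 70.5 to 71.6 FPKM against 0.24 to 0.43 FPKM, and the oligodendrocyte lineage list to 178 to 183 FPKM against 349 to 360 FPKM, the last of these through Pdgfra in STO cells. Most of the neuron sum in NSCs was Map2, at 100.4 and 102 FPKM. Gad1 was at 7.37 and 7.72 FPKM, Dcx at 4.87 and 4.56 FPKM, Snap25 at 3.03 and 3.22 FPKM and Syt1 at 1.33 and 1.18 FPKM in NSCs, all at most 0.043 FPKM in STO cells, while Tubb3 was at 8.14 to 9.25 FPKM in NSCs and 7.84 to 8.57 FPKM in STO cells. The other 4 neuron markers, Rbfox3, Stmn2, Neurod6 and Slc17a7, were under 1 FPKM in all samples. Microglia and blood markers summed to at most 0.39 FPKM and endothelial markers to at most 0.58 FPKM in any sample.

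The summed FPKM of the 20 semaphorins was alike in size in both cell types, but it was made of different genes. It was 133 ± 3.60 (SD, n = 2) in NSCs and 125 ± 3.25 (SD, n = 3) in STO cells. The order of these totals turned with the scale: with the FPKM of every sample scaled to an equal sum, as in TPM, they were 300 ± 6.43 in NSCs (SD, n = 2) and 319 ± 12.6 in STO cells (SD, n = 3). Class 3 semaphorins made up 6.86% and 6.89% of the semaphorin total in the NSC replicates and 70.0%, 71.9% and 72.6% in the STO replicates. The membrane-bound classes 4 to 7 made up the rest, between 93.1% in NSCs and 27.4% to 30.0% in STO cells. These are bulk samples, in which fewer cells of a type and less RNA per cell cannot be told apart.

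By class, the 7 class 3 genes summed to 9.16 ± 0.22 FPKM in NSCs (SD, n = 2) and 89.7 ± 1.36 FPKM in STO cells (SD, n = 3), 9.79 times as much. The 4 class 6 genes had the opposite pattern, with 70.6 ± 3.35 FPKM in NSCs and 6.91 ± 0.41 FPKM in STO cells, 10.2 times less. The 2 class 5 genes summed to 22.8 ± 1.14 FPKM in NSCs and 4.43 ± 0.45 FPKM in STO cells. The sums of class 4 differed less, 27.5 ± 0.80 against 19.9 ± 1.41 FPKM. Among the receptors, the neuropilins summed to 19.9 ± 0.15 FPKM in NSCs and 38.4 ± 1.10 FPKM in STO cells, and the class A plexins to 37.3 ± 0.88 and 59.1 ± 2.70 FPKM. The samples of the cell types did not overlap in any of these class sums, which were not tested.

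**Figure D1:**
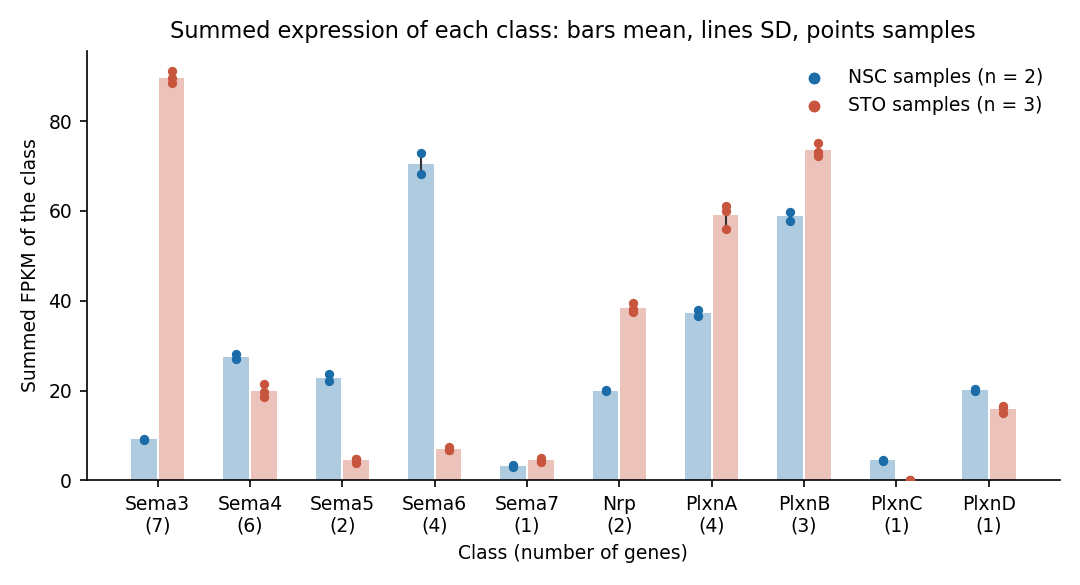
Summed FPKM (vertical axis) of each class of semaphorin, neuropilin and plexin, with the number of genes in parentheses; bars are means, lines the SD and points the samples (blue NSC, n = 2; red STO, n = 3). The class 3 sum stands at 89.7 FPKM in STO cells against 9.16 in NSCs, and the class 6 sum at 70.6 FPKM in NSCs against 6.91 in STO cells.

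Of the 31 genes, 26 had a mean of at least 1 FPKM in NSCs or in STO cells and were tested: 15 semaphorins, all 9 plexins and both neuropilins. With limma and an adjusted p-value under 0.05, 11 of them were higher and 14 lower in STO cells, and 1 (Sema5a) did not pass. Of these 26 genes, Sema3b, Sema3c and Sema3f passed the filter through STO cells alone and Plxna4, Plxnb3, Plxnc1, Sema4d, Sema5b and Sema6b through NSCs alone, so they had to differ. The count has little weight, because 85.7% of the 12278 genes tested were called, 41.9% as higher and 43.7% as lower in STO cells. With a difference of at least 1 in log2(FPKM + 1) as well, 5 of the 26 genes were higher, against 17.1% of all genes tested, and 10 lower, against 21.3%. All genes named above as passing the filter through a single cell type are among these, so the sizes have limited weight too. The share of such genes among all genes tested was not counted. The median absolute difference was 1.25 for the 26 genes and 0.74 for all genes tested, and the median signed difference was -0.31 and -0.023. An absolute difference of at least 4 was reached by 3 of the 26 genes, Sema3f, Sema3c and Sema5b, and by 4.56% of all genes tested. All 3 had passed the filter through a single cell type. The FPKM values of NSC and STO samples did not overlap in 25 of the 26 genes, and in 90% of all genes tested.

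**Figure D2:**
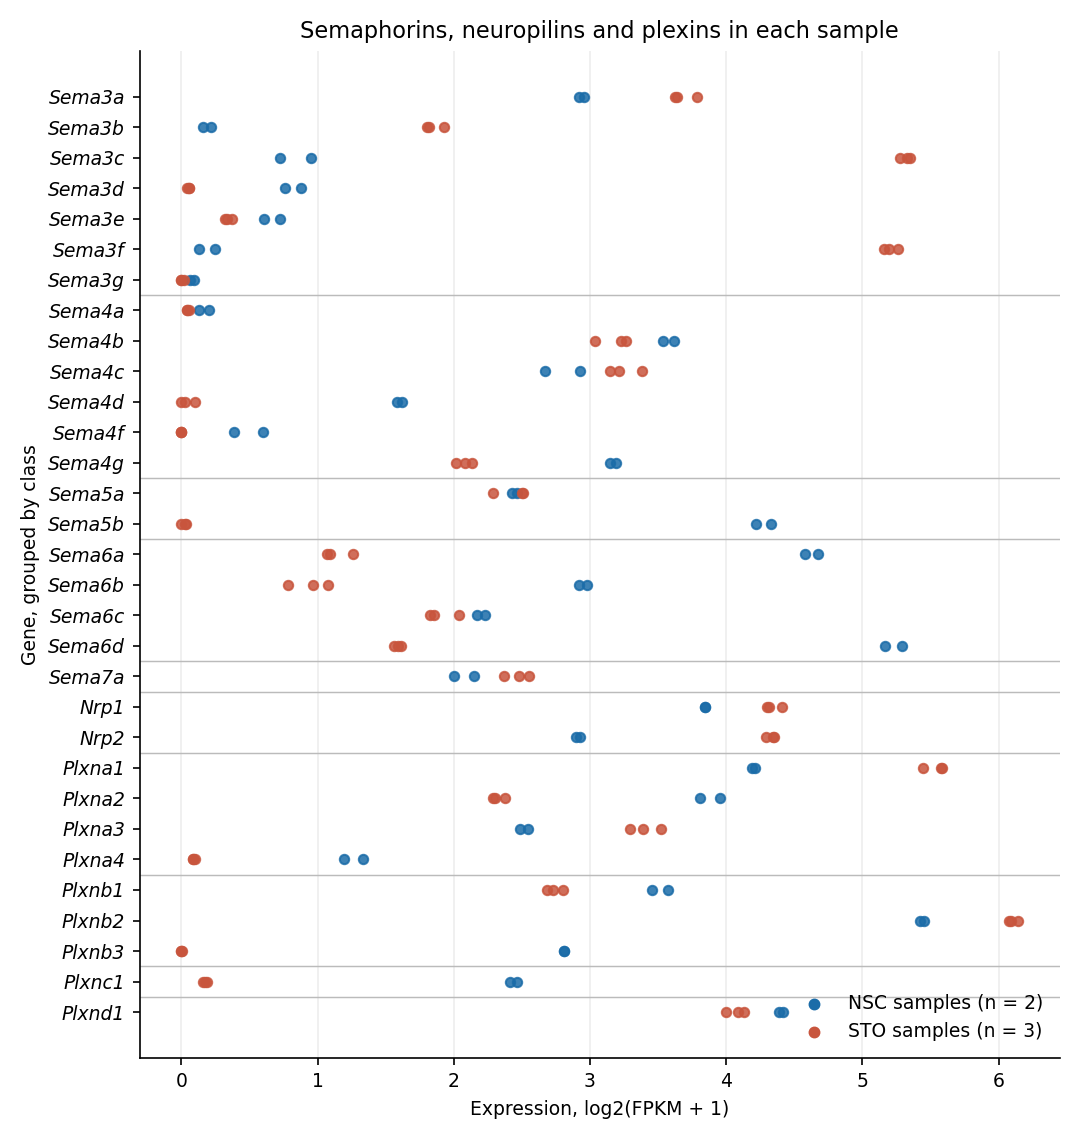
Expression of each of the 31 genes in each sample as log2(FPKM + 1) (horizontal axis), by class (blue NSC, n = 2; red STO, n = 3). Sema3c and Sema3f lie above 5 in STO cells and below 1 in NSCs, while Sema5b, Sema6a and Sema6d lie above 4 in NSCs only.

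Of the 7 class 3 semaphorins, 4 were tested and all 4 were higher in STO cells, against 41.9% of all genes tested. Sema3b, Sema3c and Sema3f passed the filter through their STO level alone, so their direction follows from the filter, and Sema3d, with an NSC mean of 0.77 FPKM close to the 0.79 FPKM of Sema3c, was not tested. Sema3c, a secreted ligand of both neuropilins known for its part in the outflow tract of the heart, was the most abundant semaphorin of STO cells, at 37.8, 39.9 and 39.2 FPKM in replicates 1, 2 and 3, against 0.65 and 0.94 FPKM in NSC replicates 1 and 2. Sema3f, a repellent that acts through neuropilin 2, was at 37.4, 35.6 and 34.8 FPKM in the STO replicates and at 0.19 and 0.095 FPKM in the NSC replicates. These 2 genes alone held 31.1% and 28.7% of the semaphorin FPKM of STO cells, and 0.59% and 0.11% of that of NSCs. The differences in log2(FPKM + 1) were 4.48 ± 0.080 (SE) for Sema3c and 5.02 ± 0.063 (SE) for Sema3f, with limma adjusted p-values of 2.9e-08 and 8.3e-09. The NSC value of Sema3c rested on 100 and 160 implied fragments, so it was low but above the counting floor in both replicates.

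Sema3a, the classic growth cone repellent that binds neuropilin 1, was present in both cell types. It had 6.77 and 6.58 FPKM in the NSC replicates and 11.4, 12.8 and 11.3 FPKM in the STO replicates, 1.77 times more in STO cells. All STO values lay above both NSC values (difference 0.74 ± 0.068, SE; limma adjusted p = 7.3e-05). With its most abundant transcript alone the difference was 0.078 and did not pass (limma adjusted p = 0.54, against 5.4e-05 to 0.54 over the 13 alternatives). Sema3b, another neuropilin ligand, was nearly silent in NSCs at 0.12 and 0.16 FPKM and low in STO cells at 2.53, 2.49 and 2.81 FPKM, a difference of 1.66 ± 0.058 (SE).

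The other 3 class 3 genes were under 1 FPKM in both cell types and were not tested. Sema3d was at 0.69 and 0.84 FPKM in NSCs and at 0.041, 0.042 and 0.031 FPKM in STO cells, where it rested on 6 to 7 implied fragments per sample. Sema3e, which binds plexin D1 without a neuropilin, was at 0.52 and 0.65 FPKM in NSCs and at 0.26, 0.29 and 0.25 FPKM in STO cells. Sema3g, known from endothelium, was at 0.069 and 0.047 FPKM in NSCs, at 0.012 FPKM in STO replicate 1, and listed at 0 in STO replicates 2 and 3, on at most 8 implied fragments per sample, too few to order the cell types. The higher class 3 sum in STO cells thus rested on 4 of its 7 genes.

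Neighbouring class 3 genes did not all have the same order between the cell types. In mm9, Sema3d, Sema3a, Sema3e and Sema3c follow each other on chromosome 5 within 4.85 Mb (chr5:12383166-17236085). No other listed gene lies between Sema3d and Sema3a and 1 (Speer3) between Sema3a and Sema3e, while 16 symbols lie in the 2.82 Mb between Sema3e and Sema3c. At one end of this stretch Sema3d was the lower in STO cells, and at the other end Sema3c was the higher. Sema3b (chr9:107500005-107511572) and Sema3f (chr9:107583833-107612806) are 72.3 kb apart and both were higher in STO cells. Of the 3 genes between them, Slc38a3, an amino acid transporter, had 33.6 and 34.5 FPKM in NSCs and at most 0.063 FPKM in STO cells, Gnat1 was under 0.28 FPKM in all samples, and Gnai2 was above 266 FPKM in all samples.

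Class 6 semaphorins, transmembrane ligands of class A plexins, were the main semaphorins of NSCs. Sema6d, a ligand of plexin A1, had 34.9 and 38.1 FPKM in the NSC replicates and 2.07, 1.96 and 2.02 FPKM in the STO replicates, 18.1 times less. It held 27.4% of the semaphorin FPKM of NSCs. Sema6a, a ligand of plexins A2 and A4, had 22.9 and 24.5 FPKM in NSCs and 1.10, 1.40 and 1.14 FPKM in STO cells, 19.6 times less. Sema6b, which acts through plexin A4, had 6.89 and 6.56 FPKM in NSCs and 1.11, 0.72 and 0.95 FPKM in STO cells. The 3 differences were -3.64 ± 0.060, -3.49 ± 0.078 and -2.01 ± 0.090 (SE), with limma adjusted p-values from 2.1e-08 to 2.1e-06.

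Sema6c was the exception among the class 6 genes, with 3.51 and 3.70 FPKM in NSCs and 3.11, 2.61 and 2.55 FPKM in STO cells. Its difference of -0.30 ± 0.078 (SE) passed with a limma adjusted p-value of 0.011. It no longer passed without NSC replicate 1 (-0.33, limma adjusted p = 0.071), without NSC replicate 2 (-0.27, limma adjusted p = 0.11) or with quantile normalization (limma adjusted p = 0.15) or scaling to an equal sum (limma adjusted p = 0.097), and its sign turned with the most abundant transcript alone. The adjusted p-values ran from 0.0027 to 0.15 over the 13 alternatives.

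Class 5 semaphorins carry thrombospondin repeats beside the semaphorin domain, and its 2 genes differed from each other. Sema5b had 17.6 and 19.1 FPKM in the NSC replicates, the third highest semaphorin there. In STO cells it had 0.019 FPKM in replicate 1, on 2 implied fragments, was listed at 0 in replicate 2 and had 0.026 FPKM in replicate 3, on 4 implied fragments. The difference was -4.25 ± 0.055 (SE; limma adjusted p = 8.8e-09). Sema5a, in contrast, had 4.39 and 4.51 FPKM in NSCs and 4.67, 4.69 and 3.89 FPKM in STO cells, so that the samples overlapped. Its difference was -0.012 ± 0.082 (SE), below the spread between replicates, and its sign turned with quantile normalization and with scaling to an equal sum.

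Of the 6 class 4 semaphorins, transmembrane ligands of class B plexins, 3 were lower and 1 higher in STO cells, and 2 were not tested. Among all genes tested, 43.7% were called lower and 41.9% higher, so this count has little weight. The direction of Sema4d, which passed the filter through NSCs alone, follows from the filter. Sema4d, the ligand of plexin B1 also known as an immune semaphorin, had 2.08 and 1.99 FPKM in NSCs, 0.069 and 0.017 FPKM in STO replicates 1 and 2, and was listed at 0 in STO replicate 3. Sema4g had 8.11 and 7.88 FPKM in NSCs and 3.25, 3.38 and 3.06 FPKM in STO cells, 2.48 times less. Their differences were -1.56 ± 0.048 and -1.09 ± 0.057 (SE). Sema4a was at most 0.15 FPKM in any sample, and Sema4f was at 0.51 and 0.31 FPKM in NSCs and listed at 0 in all 3 STO replicates.

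Sema4b and Sema4c, both expressed in neural and mesenchymal cells, were close between the cell types. Sema4b had 10.6 and 11.3 FPKM in NSCs and 8.63, 8.37 and 7.22 FPKM in STO cells (difference -0.40 ± 0.083, SE; limma adjusted p = 0.0042). Sema4c, a ligand of plexin B2, had 6.62 and 5.37 FPKM in NSCs and 9.42, 7.86 and 8.30 FPKM in STO cells (difference 0.45 ± 0.10, SE; limma adjusted p = 0.0067). Neither passed without NSC replicate 2, where the limma adjusted p-values were 0.071 and 0.086, the highest of the 13 alternatives, which began at 0.0017 and 0.0016. For both genes the sign turned when only the most abundant transcript was taken. Sema7a, the lipid-anchored ligand, had 3.44 and 3.00 FPKM in NSCs and 4.87, 4.57 and 4.17 FPKM in STO cells, 1.41 times more (difference 0.39 ± 0.078, SE; limma adjusted p = 0.0033).

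**Figure D3:**
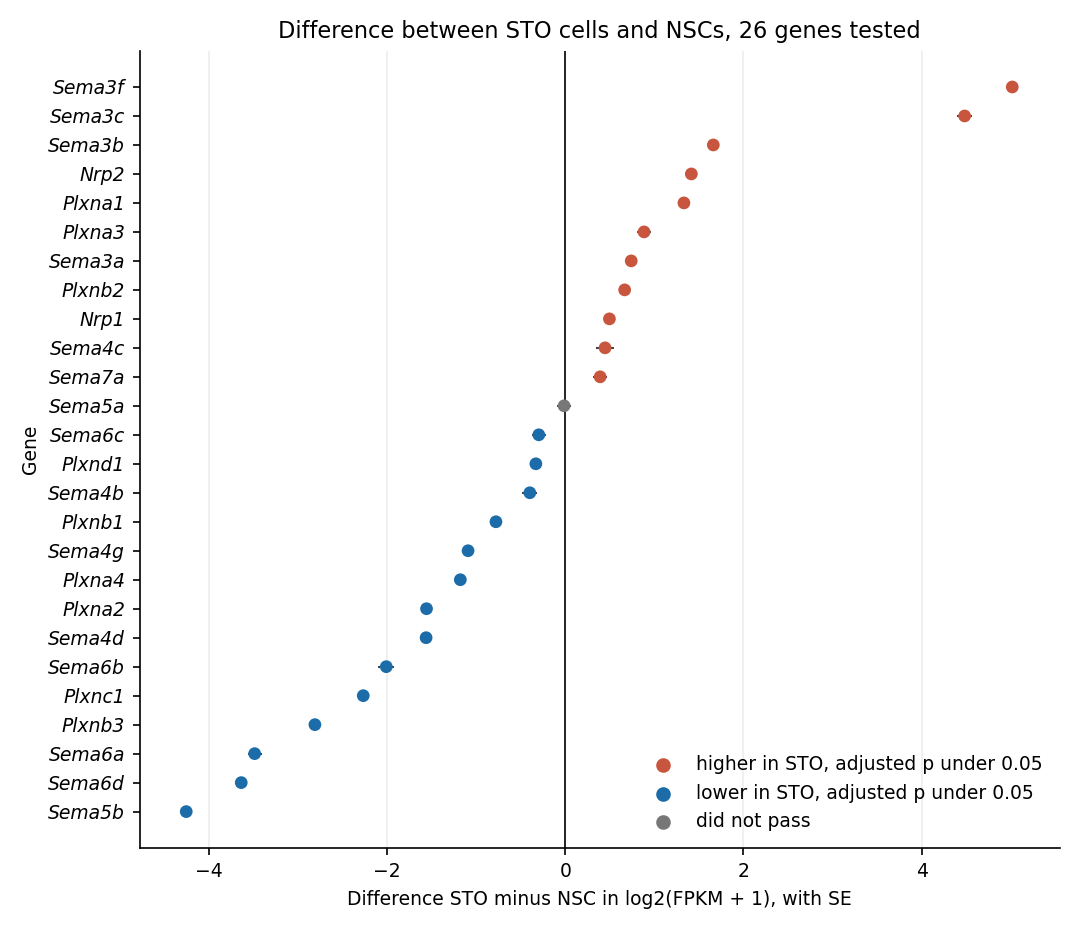
Difference STO minus NSC in log2(FPKM + 1) (horizontal axis) with its SE for the 26 genes tested; red, higher in STO cells and blue, lower, both with a limma adjusted p-value under 0.05; grey, did not pass. The differences run from -4.25 for Sema5b to 5.02 for Sema3f, and Sema5a lies at -0.012.

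Both neuropilins, the co-receptors of class 3 semaphorins and of VEGF, were higher in STO cells. Nrp1 had 13.4 FPKM in each NSC replicate and 18.9, 20.2 and 18.7 FPKM in the STO replicates, 1.44 times more (difference 0.50 ± 0.056, SE). Nrp2 had 6.44 and 6.62 FPKM in NSCs and 18.6, 19.4 and 19.3 FPKM in STO cells, 2.92 times more (difference 1.42 ± 0.051, SE). Limma adjusted p-values were 0.0002 and 7.4e-07. In NSCs Nrp1 exceeded Nrp2 in both replicates, and Nrp2 made up 32.8% of the sum. In STO cells the 2 genes were even, Nrp2 making up 49.7%, and their ranges overlapped.

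The 4 class A plexins, which signal for class 3 and class 6 ligands, split evenly. Plxna1 had 17.5 and 17.3 FPKM in NSCs and 46.7, 46.9 and 42.6 FPKM in STO cells, 2.61 times more, and Plxna3, which lies on the X chromosome, had 4.82 and 4.61 FPKM in NSCs and 10.5, 8.80 and 9.46 FPKM in STO cells, 2.03 times more. Plxna2 went the other way, with 13.0 and 14.5 FPKM in NSCs and 3.89, 4.19 and 3.94 FPKM in STO cells, 3.43 times less. Plxna4 had 1.29 and 1.53 FPKM in NSCs and 0.074, 0.058 and 0.060 FPKM in STO cells. No sample of one cell type reached the range of the other in any of the 4 genes, but this held for 90% of all genes tested. Plxna4 passed the filter through NSCs alone, so it had to differ. The differences were 1.33 ± 0.062 for Plxna1, 0.89 ± 0.078 for Plxna3, -1.56 ± 0.066 for Plxna2 and -1.18 ± 0.053 for Plxna4 (SE), with limma adjusted p-values from 1.7e-06 to 5.9e-05. With quantile normalization the difference of Plxna4 was -0.30 (limma adjusted p = 0.013, the highest over its 13 alternatives, which began at 7.6e-07).

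Plxnb2, a class B plexin of proliferating neural progenitors, was the most abundant plexin of both cell types, with 42.8 and 41.8 FPKM in NSCs and 67.3, 69.6 and 66.6 FPKM in STO cells, 1.60 times more. It made up 35.1% of plexin FPKM in NSCs and 45.7% in STO cells. Plxnb1, the receptor of Sema4d, had 10.9 and 9.99 FPKM in NSCs and 5.97, 5.42 and 5.62 FPKM in STO cells, 1.84 times less. Plxnb3, an X-linked plexin known from oligodendrocytes, was at 6.01 and 6.02 FPKM in the NSC replicates, listed at 0 in STO replicates 1 and 2, and at 0.0048 FPKM in STO replicate 3, on 1 implied fragment. The class B genes thus did not move as a group (differences 0.67 ± 0.050, -0.78 ± 0.065 and -2.81 ± 0.042, SE).

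Plxnc1, the receptor of Sema7a, had 4.32 and 4.52 FPKM in NSCs and 0.14, 0.13 and 0.12 FPKM in STO cells, where it rested on 22 to 28 implied fragments per sample (difference -2.27 ± 0.044, SE; limma adjusted p = 4.2e-08). Plxnd1, the receptor of Sema3e that is known from vessels, was the second most abundant plexin of NSCs. It had 19.9 and 20.3 FPKM there and 16.5, 16.0 and 14.96 FPKM in STO cells, 1.27 times less (difference -0.33 ± 0.059, SE; limma adjusted p = 0.0020). Its p-value was 0.050 (0.0502) with limma after scaling to an equal sum, the highest of 13 alternatives, which began at 0.0011.

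Set beside their best known receptors, ligands and receptors did not always share a direction. Sema3f and its co-receptor Nrp2 were both higher in STO cells, and Sema6a, Plxna2 and Plxna4 were all lower, as were Sema4d and Plxnb1. Sema6d was lower in STO cells while its receptor Plxna1 was higher. Sema7a was higher where its receptor Plxnc1 was almost absent. Sema5a was at 4.45 FPKM in NSCs and 4.42 FPKM in STO cells, while Plxnb3, one of its receptors, was at 6.02 FPKM in NSCs and at or near 0 in STO cells. These pairs are a selection: Sema3a with Nrp1, Sema3c with both neuropilins, Sema4c with Plxnb2 and Sema6b with Plxna4 also shared a direction with all transcripts summed. Sema3c, Sema3f, Sema4d, Sema6b, Plxna4, Plxnb3 and Plxnc1 passed the filter through a single cell type, so their direction follows from it. No protein was measured, and the values are levels of RNA side by side.

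Markers of other cell types also differed between NSCs and STO cells, in both directions: Pdgfra of the oligodendrocyte lineage list was at 30.1 to 30.4 FPKM in NSCs and 344 to 355 FPKM in STO cells. Sox10 of the same list was at 8.66 and 10.2 FPKM and Mbp at 83.4 and 88.3 FPKM in the NSC replicates, and Gfap of astrocytes at 15.9 and 16.9 FPKM. The part of such cells in the NSC values of Sema4d, Sema5b, Sema6a, Sema6d and Plxnb3 was not tested.

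In 16 of the 31 genes the annotation lists several transcripts, 69 in all for the 31 genes, of which 56 were above 0 in some sample. Cufflinks divides the fragments of a gene between its transcripts, so these values are estimates and were not tested. Of the 39 transcripts with a mean of at least 1 FPKM in either cell type, 3 were listed at 0 in both NSC replicates and 3 in all 3 STO replicates, against 14.3% in either way among all 16257 such transcripts. In 5 of these 6 the other cell type had the transcript in every replicate. The exception was NM_001284506 of Plxnb2, chosen after its values were seen, with 8.71 and 9.74 FPKM in STO replicates 1 and 2 and 0 in STO replicate 3.

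The FPKM of Sema6b was assigned to a different transcript in each cell type. NM_001130456 (chr17:56262508-56279766) held all of its FPKM in NSCs, 6.89 and 6.56, and was listed at 0 in the STO replicates. NM_013662, which starts further inside the gene (chr17:56262508-56273275, minus strand), was listed at 0 in the NSC replicates and held all of the STO values, on 68 to 117 implied fragments. In Sema4b, NM_013659 (chr7:87331727-87371410) had 5.20 and 6.77 FPKM in NSCs and was listed at 0 in STO cells, and NM_001360135, which begins later (chr7:87343327-87371410), had 5.37 and 4.50 FPKM in NSCs and 8.63, 8.37 and 7.22 FPKM in STO cells. The transcript that was present in both cell types thus had the opposite order to the gene's total.

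The Sema6d transcript NM_001290997, whose start lies far upstream (chr2:123915705-124493525), had 9.95 and 9.16 FPKM in NSCs and was listed at 0 in STO cells. The transcripts NM_001291000 and NM_199240 made up the rest in NSCs, 44.1% and 29.8% of the gene. In Sema3a and Sema4c a transcript was listed only in STO cells. NM_001243073 of Sema3a had 3.13, 6.16 and 4.82 FPKM there, beside NM_009152 with 8.32, 6.62 and 6.48 FPKM in STO cells and 6.77 and 6.58 FPKM in NSCs. NM_001304329 of Sema4c had 5.56, 4.17 and 2.96 FPKM in STO cells, and NM_001126047 held 92.0% of the gene in NSCs and 36.6% in STO cells.

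**Figure D4:**
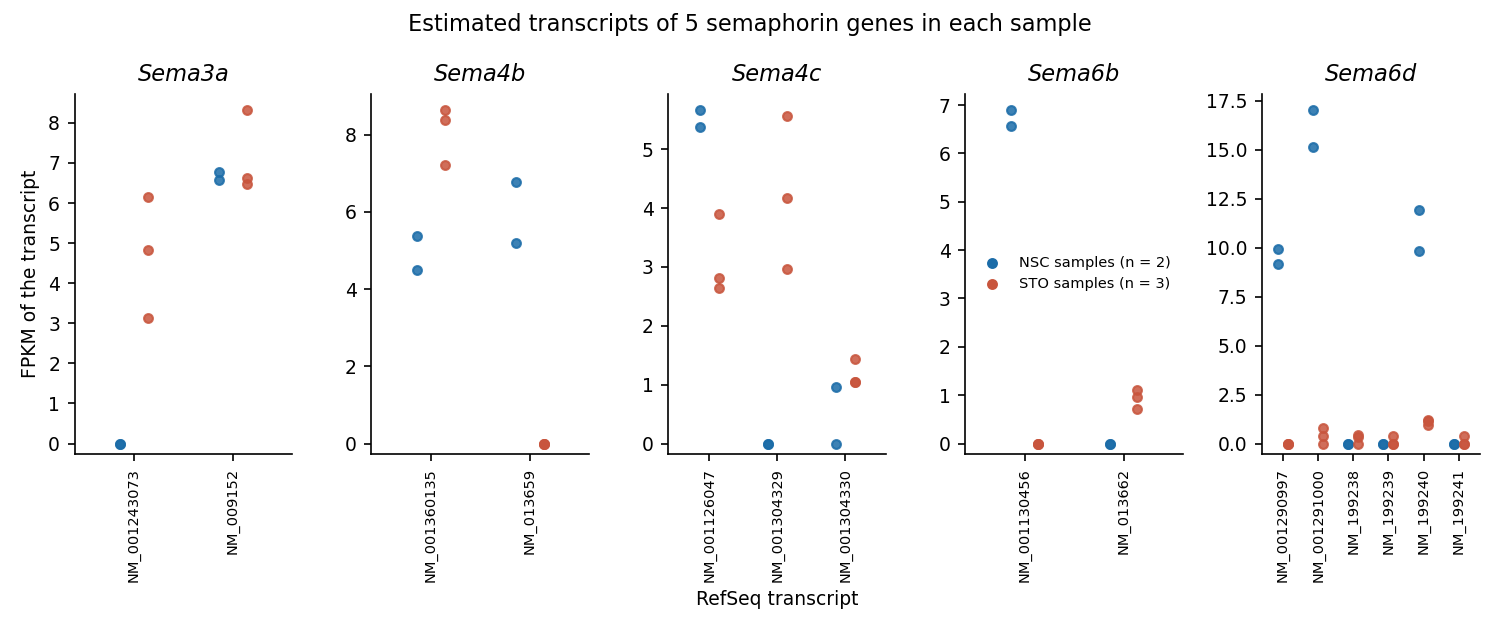
FPKM (vertical axis) of each RefSeq transcript above 0 in any sample for 5 semaphorin genes (blue NSC, n = 2; red STO, n = 3). In Sema6b, NM_001130456 lies at 6.56 and 6.89 FPKM in NSCs and at 0 in STO cells, and NM_013662 at 0 in NSCs.

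In Nrp2 the mixture was close in both cell types. It was divided between NM_001077404, NM_001077405 and NM_001077407 as 46.9%, 27.3% and 25.8% in NSCs and as 48.1%, 25.98% and 25.9% in STO cells. In STO cells Sema3f was shared between NM_011349, with 20.5, 20.0 and 18.9 FPKM, and NM_001311151, with 16.9, 15.6 and 15.9 FPKM. NM_001042779 held 70.8% and NM_001291537 29.2% of Sema3b in STO cells. In Sema6a, NM_018744 held 79.3% of the NSC and 96.7% of the STO value, and in Sema4d NM_013660 held 79.6% of the NSC value. Of the 5 transcripts of Sema6c, NM_011351 held 28.6% in NSCs and 64.8% in STO cells and NR_073550, a noncoding one, 31.8% and 22.2%, and no other transcript held over 17.0%. The transcripts of Sema4a were assigned differently in replicates of the same cell type, on at most 14 implied fragments each, and are not described by shares.

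The sequence before the starts of Sema6b, Sema4b and Sema3f is shown as an example of genes with a transcript or a level at or near 0 in one cell type. They were chosen after their values were seen, and windows of other such genes, among them Sema6d, Sema4c, Sema4d and Plxna4, are not shown. The window of Plxnc1 is shown as the one with the most CpG among the 31 genes. Each window is the 250 bases upstream of a listed start in mm9, 5′ to 3′ on the strand of the gene, with CpG dinucleotides in capitals.
Sema6b NM_001130456, chr17:56279767-56280016, strand minus: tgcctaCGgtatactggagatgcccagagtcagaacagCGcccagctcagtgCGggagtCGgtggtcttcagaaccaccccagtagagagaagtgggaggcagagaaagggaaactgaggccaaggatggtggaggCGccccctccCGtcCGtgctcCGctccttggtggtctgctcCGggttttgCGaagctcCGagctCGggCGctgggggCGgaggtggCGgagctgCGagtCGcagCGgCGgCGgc
Sema6b NM_013662, chr17:56273276-56273525, strand minus: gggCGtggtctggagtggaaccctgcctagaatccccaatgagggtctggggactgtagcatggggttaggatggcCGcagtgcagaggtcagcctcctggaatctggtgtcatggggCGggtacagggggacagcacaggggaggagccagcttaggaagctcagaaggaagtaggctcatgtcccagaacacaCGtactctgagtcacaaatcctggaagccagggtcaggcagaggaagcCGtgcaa
Sema4b NM_013659, chr7:87331477-87331726, strand plus: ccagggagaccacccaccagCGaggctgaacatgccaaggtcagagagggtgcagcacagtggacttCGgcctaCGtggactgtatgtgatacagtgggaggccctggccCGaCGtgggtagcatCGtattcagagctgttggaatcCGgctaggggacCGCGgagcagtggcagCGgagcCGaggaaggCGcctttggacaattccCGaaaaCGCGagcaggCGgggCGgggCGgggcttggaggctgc
Sema4b NM_001360135, chr7:87343077-87343326, strand plus: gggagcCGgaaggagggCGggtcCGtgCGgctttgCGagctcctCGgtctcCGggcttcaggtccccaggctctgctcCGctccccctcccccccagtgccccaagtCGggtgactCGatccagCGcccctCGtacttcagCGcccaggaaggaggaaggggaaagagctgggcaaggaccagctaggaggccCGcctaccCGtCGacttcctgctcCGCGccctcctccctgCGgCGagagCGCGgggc
Sema3f NM_011349, chr9:107612807-107613056, strand minus: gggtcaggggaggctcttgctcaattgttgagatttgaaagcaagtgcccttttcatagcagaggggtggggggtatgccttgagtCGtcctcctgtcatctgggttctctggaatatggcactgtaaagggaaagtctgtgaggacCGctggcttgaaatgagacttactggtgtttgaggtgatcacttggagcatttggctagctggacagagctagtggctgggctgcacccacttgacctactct
Sema3f NM_001311151, chr9:107607923-107608172, strand minus: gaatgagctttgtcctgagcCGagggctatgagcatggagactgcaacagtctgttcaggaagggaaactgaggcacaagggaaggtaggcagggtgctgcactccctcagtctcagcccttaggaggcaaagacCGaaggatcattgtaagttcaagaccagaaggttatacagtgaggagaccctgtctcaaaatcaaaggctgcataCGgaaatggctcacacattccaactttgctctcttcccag
Plxnc1 NM_018797, chr10:94407213-94407462, strand minus: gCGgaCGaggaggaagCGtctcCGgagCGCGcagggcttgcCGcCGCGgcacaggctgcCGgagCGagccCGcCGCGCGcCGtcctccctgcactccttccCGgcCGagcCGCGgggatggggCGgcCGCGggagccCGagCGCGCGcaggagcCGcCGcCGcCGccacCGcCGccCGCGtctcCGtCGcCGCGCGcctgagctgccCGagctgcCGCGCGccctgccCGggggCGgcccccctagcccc
The starts of Sema6b differ in CpG: 20 in the window of NM_001130456, the NSC transcript, and 5 in that of NM_013662, the STO transcript, whose window also holds the AP-1 motif TGANTCA. The only other window of the 31 genes with this motif is that of NM_001126047 of Sema4c. That transcript was higher in NSCs, with a mean of 5.52 FPKM there and 3.12 FPKM in STO cells. Both windows of Sema4b are rich in CpG, with 18 before NM_013659 and 22 before NM_001360135. Sema3f, at 36.0 FPKM in STO cells, has only 2 and 3 CpG in its windows, while Plxnc1, at 0.13 FPKM in the same cells, has 46. Other genes had the opposite order: Sema3c, at 39.0 FPKM in STO cells, has 39 CpG, and Sema3d, at 0.038 FPKM there, has 4. A relation between CpG and level was not tested. Starts are as listed and were not measured. That of NM_001311151 lies inside Sema3f, so its window may not precede a true start of transcription. The median over all 24044 listed starts with a known strand was 9, and 12.5 over the 48 starts of the 31 genes. Motifs were searched on both strands, and a match is only a description. The GC box GGGCGG was in 32 of the 48 windows (66.7%) and in 42.5% of all windows, the TATA box TATAAA in 2 (4.17%) and in 11.4%, and TGANTCA in 2 (4.17%) and in 5.88%. Some windows of one gene overlap, and 15 of the 48 overlap an annotated exon of the 31 genes, so they are not independent. Exons of other genes were not searched.

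Co-receptors, other receptors and intracellular partners of semaphorin signalling were taken from a list of 45 genes, of which 39 were tested. With limma, 14 were higher and 22 lower in STO cells and 3 did not pass, a share called of 92.3% against 85.7% of all genes. The largest falls in STO cells were in Crmp1, Chl1, Fyn and Nrcam. Crmp1, a cytoskeletal mediator of Sema3a, had 45.7 and 52.9 FPKM in NSCs and at most 0.015 FPKM in STO cells. Chl1, an adhesion molecule that works with neuropilin 1, had 25.8 and 28.4 FPKM in NSCs and was listed at 0 in STO cells, and Nrcam, a partner of neuropilin 2, had 12.02 and 13.6 FPKM against 0.28, 0.29 and 0.27 FPKM. Fyn, a kinase of the Sema3a pathway, had 228 and 251 FPKM in NSCs and 15.9, 16.1 and 15.9 FPKM in STO cells, 15.01 times less.

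The largest rises in STO cells included Met and Erbb2, receptor tyrosine kinases that pair with class B plexins. Mst1r, another such kinase, was under 1 FPKM in all samples and not tested. Met had 0.87 and 0.63 FPKM in NSCs and 20.8, 22.4 and 20.3 FPKM in STO cells (difference 3.67 ± 0.079, SE), and Erbb2 had 0.91 and 1.13 FPKM in NSCs and 14.4, 14.4 and 13.1 FPKM in STO cells, 13.7 times more. Farp2, an exchange factor in Sema3a signalling, was listed at 0 in NSCs and had 5.11, 6.19 and 5.24 FPKM in STO cells. Rhod, a small GTPase that binds plexins, had 1.90 and 2.00 FPKM in NSCs and 9.17, 8.17 and 9.53 FPKM in STO cells, 4.60 times more. The limma adjusted p-values of these 4 genes and of the 4 largest falls ran from 7.4e-09 to 1.5e-06. They have little weight, because these genes were picked for the size of their difference. Crmp1, Chl1 and Nrcam also passed the filter through NSCs alone, and Farp2 and Met through STO cells alone. The direction of those genes follows from the filter.

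Itgb1, the integrin chain bound by Sema7a, had 185 and 200.2 FPKM in NSCs and 164, 167 and 171 FPKM in STO cells (difference -0.20 ± 0.061, SE; limma adjusted p = 0.019), and did not pass with quantile normalization, scaling to an equal sum or without STO replicate 1 (limma adjusted p = 0.33, 0.65 and 0.070, the last with a difference of -0.19). Arhgef11 and Arhgef12, the RhoA exchange factors of class B plexins, had differences of 0.29 ± 0.063 and -0.11 ± 0.060 (SE). The first passed (limma adjusted p = 0.0050), but not without NSC replicate 1 (0.25, limma adjusted p = 0.050), and the second did not (limma adjusted p = 0.12), with 19.9 and 19.5 FPKM in NSCs and 18.2, 19.1 and 17.2 FPKM in STO cells, and its sign turned after scaling to an equal sum.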

How the data were processed

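RNA-seq of 5 samples was examined, NSC replicates 1 and 2 and STO replicates 1 to 3, assigned from their titles. By the paper's methods and the submitters' processing notes, stranded mRNA libraries were trimmed, aligned to mm9 with HISAT2 (4.8.2) and quantified with Cufflinks 2.2.1 on RefSeq transcripts. The authors deposited FPKM with confidence bounds, already divided by depth, for 40201 transcripts per sample. Coordinates are those of the files in mm9; all 31 genes lay in the gene of the same name in the NCBIM37 annotation, whose genome gave the sequences. Symbols came from a RefSeq table of GRCm38.p6, used for names only, and 39946 transcripts (99.4%) matched. FPKM was summed per symbol. The 31 genes, the partner and marker lists and the tests were chosen with earlier results of these data known.

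Genes with a mean of at least 1 FPKM in NSCs or STO cells (12278) were compared on log2(FPKM + 1) by moderated linear models (limma 3.58.1 under R 4.3.3, with a mean-variance trend), with Benjamini-Hochberg adjustment over all of them and a threshold of 0.05. Differences are STO minus NSC on that scale, which understates the change of low genes. An exact permutation test of 2 against 3 samples cannot give p below 0.1, so it was not used. The fit was also run on simulated data, only as a check of the code. Far fewer genes were changed there than were called here, so it says nothing about the calls. Named partners were the 4 largest rises and falls among those called without overlap, and Met, Itgb1, Arhgef11 and Arhgef12; transcripts were named where a second one held at least 20% of a gene in either cell type. Alternatives changed the pseudocount (0.1), the filter, the normalization (quantile, or each sample scaled to an equal sum), the trend, the replicate block, the replicates, the transcripts summed, failed estimates and the size required. Other steps used Python 3.11.15, numpy 2.4.6, pandas 2.3.3 and matplotlib 3.10.9.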

Additional observations from a re-analysis of the deposited data

How the results depend on the processing

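Each of 25 of the 26 genes kept its direction under every alternative that summed all transcripts; Sema5a, which did not pass, turned in sign with quantile normalization (0.085), scaling to an equal sum (0.15), the replicate block (0.060), without NSC replicate 2 (0.0037) and without STO replicate 3 (0.060); leaving out 1 replicate at a time gave -0.050 to 0.060 for it. With the most abundant transcript alone, the sign turned for Sema4b (0.61), Sema4c (-0.68), Sema6c (0.45) and Arhgef12 (0.011); Arhgef12 also turned with scaling to an equal sum (0.053). Among the alternative values of the 26 genes, 322 kept direction and side of the threshold, 8 lost the call and 8 changed sign. Requiring a difference of at least 1 left 5 higher of the 26 genes, 8 higher and 12 lower partners, and 2099 higher and 2613 lower genes of all tested; the other counts stayed within 1.5 times. Among differences that kept their call, a pseudocount of 0.1 enlarged by over 1.5 times those of genes at or near 0 in one cell type (Plxna4 -3.20, Plxnb3 -5.91, Plxnc1 -4.32, Sema3b 3.50, Sema4d -4.09, Sema5b -7.33, Chl1 -8.09, Crmp1 -8.88, Farp2 5.81). So did scaling to an equal sum for Plxna4 (-1.84), Sema3b (2.54), Sema4d (-2.38), Sema7a (0.60) and Arhgef11 (0.47), and the most abundant transcript for Arhgef11 (0.70). Scaling reduced Sema4b to -0.25. The scaled sum was above the FPKM sums of the samples (385485 to 446393) and the pseudocount of 1 was kept. This setting therefore also made the pseudocount weigh less, and the 2 changes were not separated. Scaling to an equal sum moved the median difference of all genes from -0.023 to 0.14. Leaving out 1 NSC replicate leaves a lone sample that is assumed to vary like the others.

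Replicates 1 and 2 exist in both cell types, and nothing in the labels pairs them. Deviations from the cell type means correlated at 0.0029 and 0.064 for equal numbers and from -0.064 to 0.059 for others. With the replicate block, which leaves STO replicate 3 without a partner and so without weight in the difference, STO cells had 4988 higher and 5250 lower genes, and 11 and 14 of the 26 genes; it changed no call among them. Leaving out each replicate in turn gave 10 to 11 higher and 12 to 14 lower of the 26 genes, 13 to 14 and 20 to 22 partners, and 4702 to 5062 and 4885 to 5247 genes. The cause of these changes was not tested. Depth limits what the genes with few implied fragments, such as Sema3g and Sema4a, can show.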
